A study of Mus musculus with 20 samples.

Results

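Editing levels in cortex and cerebellum were compared at 6461 cytidines that both regions had in their lists of edited sites. The sites were chosen by their measured values: the same chromosome, position and strand had to be listed in both regions, with an editing level under 35% in each. Of the 6627 sites in both lists, 166 were left out by that limit, and 25978 sites were listed in at least 1 of the 3 brain regions studied. The members lay in 1547 of 3731 genes. For each site the log2 ratio of the cerebellar over the cortical level was taken, and for the 642 genes with 3 or more members (5254 sites) the median log2 ratio of the gene. Of the other genes, 603 had 1 member site and 302 had 2, and these enter the values per site only.

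The libraries were bulk polyA RNA-seq of dissected mouse brain regions. The cortex and cerebellum groups each comprised 4 libraries from mice with the APOBEC1-YTH genotype, and the same 4 animal numbers supplied both regions and the hippocampus group. APOBEC1-YTHmut mice, which the series design names as the background control in site calling, supplied 3 cortical, 3 cerebellar and 2 hippocampal libraries, 20 libraries in all. Mice of both genotypes received tamoxifen, which induces the transgene, in doses of 20 mg/kg spaced by 24 h over 5 days, and dissection followed 7 days after the final dose. The sources used here do not give the strain, the age, the promoter of the transgene or the cells that express it. Each region has 1 deposited list in which the libraries are combined. A level therefore has no SD, no difference could be tested, the depth is unknown, and every ratio below describes these 2 lists. In bulk tissue, fewer cells of a type and less RNA per cell cannot be told apart, and gene expression was not measured here.

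N6-methyladenosine (m6A) is the most abundant internal mark of messenger RNA. It is placed by a methyltransferase complex at adenosines that precede a cytidine, often near the stop codon and in the 3′ untranslated region, and is bound by reader proteins with a YTH domain that affect the decay, transport and translation of the RNA. In the APOBEC1-YTH fusion, a YTH domain carries the cytidine deaminase APOBEC1 to m6A, and a nearby cytidine is then read as uridine, so the share of edited reads serves as a relative measure of methylation nearby. The amount of the fusion in each region was not measured here. Differences between regions in that amount and in methylation cannot be told apart. Neurons hold many long, methylated transcripts, including those of synaptic and signalling proteins.

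Sequence around members could be read where a site fell inside the RefSeq (GRCm38.p6) window of 300 nt at the start of a gene, often a neighbouring or antisense one. That was the case for 8 sites, shown because they are the members whose local bases are known here. Each is given 5′ to 3′ on the strand of the edited RNA, with 12 nt on either side. The capitals mark the edited cytidine and the 2 bases before it, where an m6A would lie directly upstream.
Sdf4 (chr4:156013517-156013541, + strand): tagctcttctGACttccctgggcat
Septin5 (chr16:18622559-18622583, - strand): agactgttcaGACctggagccacag
B3gat3 (chr19:8921922-8921946, + strand): cagccccctgAACctgaggccctgc
Kcnmb4 (chr10:116473184-116473208, - strand): accagctcctGACcaaccccaaggt
Podxl2 (chr6:88842732-88842756, - strand): acgggcgcgaGACtgcccgacgcca
Cdr1os (chrX:61185549-61185573, + strand): gaaaatccatGACttcccaaaaatc
Abhd6 (chr14:8055691-8055715, + strand): cccaaaacctGACacagtaaccact
Gm21988 (chr11:70238140-70238164, - strand): ccccgttctgAACtacaataaaaag

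All 8 edited bases were C and followed an A, and each triplet was GAC or AAC. Among all cytidines of the 32851 start windows, 18.2% had an A before them and 9.13% ended GAC or AAC. The smallest gap between members of a gene was 3 nt. Whether site calling required such a triplet is not given in the sources used here. The 8 triplets may thus be set by the calling and are a description. The order of the list is that of the log2 ratio, from low to high. The Sdf4 site, in the gene of a calcium-binding Golgi protein, was edited at 16.25% in cortex and 5.68% in cerebellum (log2 ratio -1.52). In Septin5, which encodes a filament-forming GTPase of nerve terminals, the log2 ratio was -1.43, and in B3gat3, a glycosyltransferase gene, it was -1.12. The ratios at Kcnmb4, Podxl2 and Cdr1os were -0.82, -0.41 and -0.36. Abhd6 was nearly level (5.80% and 5.56%), and the Gm21988 site was higher in cerebellum (1.75% and 6.32%, log2 ratio 1.85). Of the 8 sites, 7 were lower and 1 higher in cerebellum, beside 52.7% higher over all members. The 6 GAC sites were all lower, and the 2 AAC sites differed in direction. The triplets of the other members were not read, so the 2 triplets cannot be compared over all members.

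Over all members the 2 regions were centred near each other while single sites spread widely. The median level was 3.51% in cortex and 3.70% in cerebellum. The median log2 ratio was 0.06 (0.04 to 0.09, exact 95% interval from order statistics, n = 6461 sites), with an SD over sites of 0.94, and the 25th and 75th percentiles were -0.55 and 0.70. Intervals here treat sites or genes as independent and do not cover animals or read counting. The levels lay within 2-fold at 72.4% of sites (71.3 to 73.5%, exact binomial interval). Cerebellum was higher, by any amount, at 52.7% of the members, the share beside which the counts of sites per gene below stand. Cerebellum was at least 2-fold higher at 995 sites, 15.4% of the members, and at least 2-fold lower at 790, 12.2%. A 4-fold difference was found at 143 sites in favour of cerebellum and 89 in favour of cortex. Because no list holds a level under 1%, a site that is low in 1 region cannot be 2-fold lower still in the other. Of the 5140 sites with at least 2% in cortex, 15.4% were 2-fold lower in cerebellum, and of the 5331 with at least 2% in cerebellum, 18.7% were 2-fold lower in cortex.

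**Figure D1:**
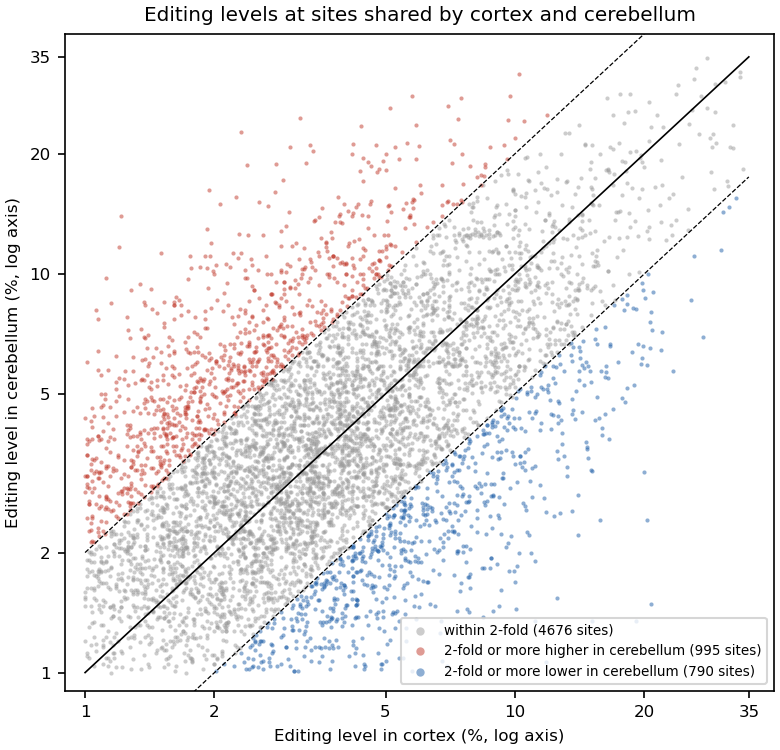
Editing level (%) of each of the 6461 shared sites in cortex (x axis) and cerebellum (y axis), both on log axes; the solid line marks equal levels and the dashed lines 2-fold differences. The cloud is centred near the solid line, with 995 sites above the upper dashed line and 790 below the lower one.

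The share of sites within 2-fold was highest at both ends of the level range, where the bounds on the levels restrict the ratio. By the geometric mean of the 2 levels, 82.5% of the 963 sites between 1 and 2% lay within 2-fold, where the floor of the lists leaves little room for a difference. The share was 67.7% between 2 and 3%, 69.8% between 3 and 5%, 71.6% between 5 and 10%, 79.9% between 10 and 20%, and 93.3% of the 45 sites above 20%. The ratio varied little with position. Of the members, 6345 lay within the RefSeq span of their gene, at a median distance of 1394 nt from its annotated 3′ end along the genome, and 90.2% lay within 5000 nt of that end. In the 7 distance classes from under 200 nt to over 10000 nt, the median log2 ratio ranged from 0.04 to 0.09.

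The lowest ratio was in Tef, a circadian transcription factor gene, where the site at chr15:81824039 had a cerebellar level of 1.35%, a cortical one of 19.12% and a hippocampal one of 18.99%. The next, in Camkk2 (chr5:122733819), stood at 20.73% in cortex, 12.66% in hippocampus and 1.49% in cerebellum. Sites in Igfbp5, Glyr1, Zbtb18, Msl1, Kifc2 and Cplx2 followed, with log2 ratios between -3.49 and -2.80. At the other end, a site in the cyclin-dependent kinase gene Cdk14 (chr5:4806519) had a cerebellar level of 14%, a cortical one of 1.21% and a hippocampal one of 1.44%. A site in Odr4 (chr1:150362141) was at 22.67%, 2.30% and 3.09% in the same order. Sites in Dner, Atrnl1, Nsg1, Ywhah and Uhmk1 were also among the highest, with log2 ratios from 3.12 to 2.86.

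The members nearest the limit of 35% were in Atp6v1c1, a proton pump subunit gene (28.05% in cortex, 34.76% in cerebellum), the neuronal calcium sensor gene Vsnl1 (33.94% and 18.34%) and Pyurf (33.33% and 31.11%). Just outside it were sites in Tmem9b (31.91% and 35.48%), Prmt8 (8.97% and 35.9%) and Sgsm1 (35.38% and 36.07%). The Prmt8 site was 4-fold higher in cerebellum.

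Per gene, the median log2 ratio was centred at 0.08 (0.03 to 0.14, n = 642 genes) with an SD of 0.64. It was above 0 in 359 genes and below 0 in 281. It reached 1 or more, a 2-fold higher level in cerebellum, in 44 genes (6.85%) and -1 or less in 28 (4.36%). Every member of the gene differed in the same direction in 23 of the 44 and in 16 of the 28, beside 103 of all 642 genes; genes past 2-fold were selected on the median of the same ratios, so this is a description. Gene means accounted for 37.7% of the variance of log2 ratios over the sites of the 642 genes, and the rest lay between sites of the same gene.

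The gene with the lowest median was Camkk2, which encodes a kinase that activates other calmodulin-dependent kinases. Its 3 sites were at 16.54%, 1.51% and 20.73% in cortex and at 3.85%, 1.28% and 1.49% in cerebellum (median log2 ratio -2.10). Their median distance to the annotated 3′ end along the genome was 15369 nt, and the transcripts and exons that hold them were not examined. The adenosine receptor gene Adora1, whose product restrains transmitter release, had 3.52%, 8.15%, 9.66% and 6.78% in cortex against 2.15%, 2.44%, 2.11% and 1.07% in cerebellum (-1.97). Its cortical levels were all above its cerebellar ones. In Adcy1, a calcium-stimulated adenylyl cyclase gene, the 5 sites were at 6.29%, 15.06%, 5.48%, 16.93% and 8.23% in cortex. In cerebellum the same sites were at 1.69%, 3.23%, 1.09%, 4.57% and 2.98% (-1.90), again without overlap. The genes at either end were picked by the median of these same ratios, and sites are not replicates of a region. Levels without overlap, here and below, are therefore a description. Igfbp5, which encodes a binding protein for insulin-like growth factors, ranged from 2.56 to 20.31% in cortex (median 12.8%, 8 sites) and from 1.35 to 6.08% in cerebellum (median 2.93%). Kifc2, a kinesin motor gene, had medians of 8.90% and 2.31% over 8 sites, all 8 lower in cerebellum.

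Of the other genes among the 15 lowest, Adgrl1, a latrophilin adhesion receptor gene, had 4.31%, 5.22%, 4.29% and 7.80% in cortex and 1.38%, 1.55%, 3.12% and 2.7% in cerebellum (-1.59). Celf4, which encodes an RNA-binding protein of excitatory neurons, had the most sites of the 28 genes. Its 27 sites ranged from 1.29 to 27.38% in cortex (median 6.33%) and from 1.15 to 6.95% in cerebellum (median 2.45%), and 25 of the 27 were lower in cerebellum (-1.45). Zbtb18, which encodes a zinc finger transcriptional repressor that acts in cortical neuron development, was lower at 7 of 8 sites (-1.44). The others were Hnrnpk, a nuclear RNA-binding protein gene (-1.34, but -0.11 over the sites that hippocampus also lists), the membrane glycoprotein gene Gpm6a (-1.31, lower at 6 of 6 sites) and the junctophilin gene Jph3 (-1.24, lower at 4 of 6 sites), with the channel and kinase genes taken up below.

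At the high end stood Odr4, with 2.30%, 4.92% and 2.99% in cortex and 22.67%, 19.23% and 3.70% in cerebellum (median log2 ratio 1.97). Tnfrsf21, the gene of a death receptor, had 3.0%, 2.15% and 4.29% in cortex and 20.75%, 8.33% and 9.52% in cerebellum (1.95), with no overlap of the regions. Abr, which encodes a regulator of small GTPases, had 1.74%, 1.85% and 3.23% against 6.38%, 6.94% and 5.16% (1.87). These 3 genes have 3 members each, so a single site moves their median. Atrnl1 had 13 members, of which 12 were higher in cerebellum: they ranged from 1.09 to 8.18% in cortex (median 2.78%) and from 3.64 to 20.0% in cerebellum (median 10.2%, median log2 ratio 1.82). Elmod1, an Arf GTPase-activating protein gene, was higher at 6 of 6 sites, with medians of 1.90% and 6.38% (1.78).

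Itpr1, which encodes the IP3-gated calcium release channel that is abundant in Purkinje cells, had 1.49%, 3.43% and 1.43% in cortex. In cerebellum its sites were at 4.85%, 10.23% and 8.15% (1.70), above all cortical levels. Rtn4, the gene of the neurite growth inhibitor Nogo, had 2.95%, 3.19% and 5.67% against 10.56%, 10.26% and 4.94% (1.69), and its last site went the other way. Vstm2a was higher at 5 of 5 sites (1.64), the palmitoyltransferase gene Zdhhc14 at 3 of 3 (1.67) and Reps2 at 3 of 3 (1.57). Ppp2r2a, a regulatory subunit of protein phosphatase 2A, had a median of 1.42 and the arginine methyltransferase gene Prmt8 one of 1.42, with 2 of its 3 sites higher. The gene with the most members of the 44 was Hspa12a, of the heat shock protein family, which was not among the 15 highest and is named for that number. It was higher at 28 of 29 sites, with medians of 3.01% in cortex and 6.06% in cerebellum (1.03, or 0.95 after scaling the regions to equal medians).

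Gene families were described by how many of their genes with 3 or more members lay above or below 0, beside 359 and 281 of 642 over all genes and a median of gene medians of 0.08. Genes of inhibitory transmission had higher levels in cerebellum in 9 of 11 cases, with a median of 0.53, and 4 of the 11 were at least 2-fold higher and none 2-fold lower. Gabbr2, a subunit of the metabotropic GABA-B receptor, was higher at 12 of 13 sites. Its levels ranged from 1.01 to 4.87% in cortex (median 1.43%) and from 2.42 to 14.37% in cerebellum (median 3.92%, median log2 ratio 1.38). Insyn1, the gene of an inhibitory postsynaptic scaffold protein, was higher at 11 of 12 sites (1.30). Gad2, which encodes an enzyme of GABA synthesis, had 10.78%, 3.77% and 2.54% in cortex and 10.29%, 7.69% and 6.12% in cerebellum (1.03). The glycine receptor subunit gene Glrb (0.65) was below the 2-fold line, and the receptor subunit gene Gabrb2 (-0.14) was lower in cerebellum. With both levels at least 2%, the median of the 10 genes still measured was 0.26, and Gabbr2 (0.80) was under 2-fold. By the ratio of mean levels Gad2 was at 0.50.

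**Figure D2:**
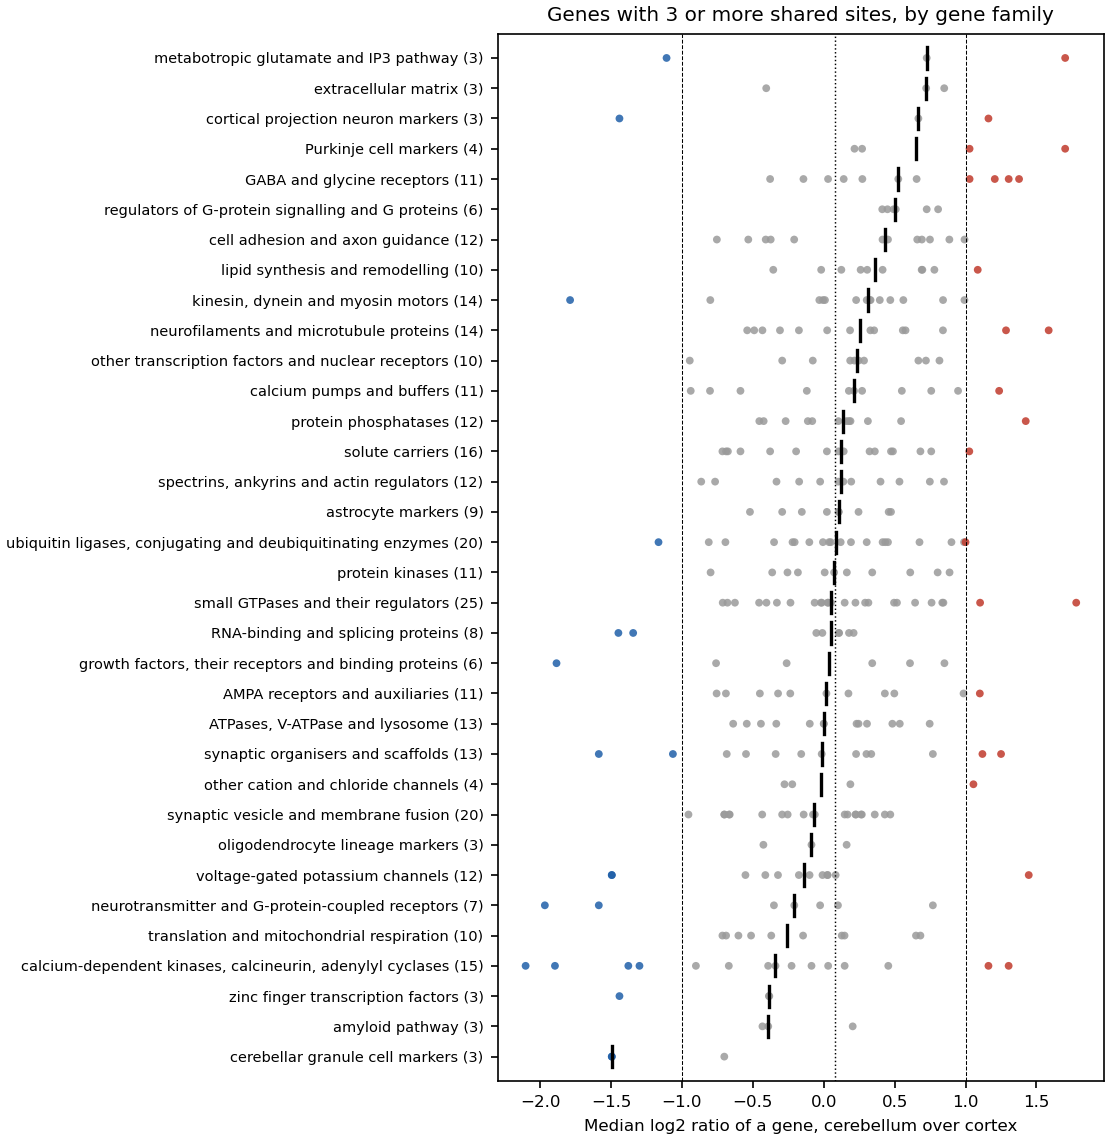
Median log2 ratio (cerebellum over cortex) of each gene with 3 or more shared sites, by gene family, for families with at least 3 such genes (number in brackets). A point is a gene (red, at least 2-fold higher in cerebellum; blue, at least 2-fold lower; grey, between), the black bar is the family's median, the dotted line the median of all 642 genes (0.08) and the dashed lines 2-fold. Genes of inhibitory transmission centre on 0.53 and those of calcium-dependent kinases, calcineurin and adenylyl cyclases on -0.34.

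Genes of calcium-dependent kinases, calcineurin and adenylyl cyclases, the enzymes that carry calcium signals in spines, lay below 0 in 10 of 15 cases, with a median of -0.34. In this family 4 genes were at least 2-fold lower and 2 at least 2-fold higher. Besides Camkk2 and Adcy1, the lower ones were Ppp3ca, the catalytic subunit of calcineurin, and Camk2b. Ppp3ca was lower at 10 of 11 sites, from a median of 5.10% in cortex to 1.76% in cerebellum (-1.38). The 3 sites of Camk2b were at 5.51%, 14.06% and 2.08% in cortex and at 1.66%, 5.71% and 2.04% in cerebellum (-1.30). Camk2n1, an inhibitor of the same kinase, was lower at 19 of 19 sites (-0.90), and Ppp3r1, the regulatory subunit of calcineurin, at 9 of 10 (-0.67). Camk2a went the other way. Its 19 sites ranged from 1.24 to 11.71% in cortex (median 3.34%) and from 2.27 to 21.21% in cerebellum (median 5.71%), with 16 of the 19 higher in cerebellum (1.16, or 0.77 with both levels at least 2%). The anchoring protein gene Akap6 was higher at 5 of 5 sites (1.30).

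Potassium channel genes lay below 0 in 8 of 12 cases (median -0.14, or 0.03 after merging sites within 10 nt). Kcnc1, a fast-repolarising channel gene, had a median of 7.79% in cortex and 2.26% in cerebellum over 7 sites, and Kcnd2, an A-type channel gene, 6.40% and 1.98% over 8 sites. Both had a median log2 ratio of -1.50 and were lower at every member. Kcnab2, an auxiliary subunit gene, was higher at 7 of 8 sites, with medians of 3.38% in cortex and 10.4% in cerebellum (1.45). Kcna2 was the gene with the lowest mean absolute log2 ratio among genes with 8 or more members, 0.22 over 8 sites. Both sodium channel genes were above 0: Scn1a was higher at 32 of 46 sites (0.58) and Scn8a at 12 of 18 (0.41).

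Glutamate receptor genes did not lean to a side: of 11 AMPA receptor and auxiliary genes, 6 were above and 5 below 0 (median 0.02, or -0.06 after scaling the regions to equal medians). Their subunits differed among themselves, from Gria4 at -0.76 through Gria2 at 0.02 and Gria3 at 0.43 to Gria1 at 0.99, where 17 of 21 sites were higher in cerebellum. The Gria4 value rests on 3 sites. Of the Gria4 sites listed in 1 of the 2 regions, 4 were cortical and 31 cerebellar, opposite to its median. Cacng4, an auxiliary subunit gene, was higher at 2 of 3 sites (1.10, or 0.86 by the ratio of mean levels). No NMDA or kainate receptor gene had 3 members. In the metabotropic pathway, Gnaq (0.73) and Itpr1 were higher, and the protein kinase C gene Prkce was lower at 9 of 11 sites (-1.11, or -0.99 by the ratio of mean levels). All 6 genes of G proteins and their regulators were above 0 (median 0.50) with none past 2-fold, and Rgs7bp, which anchors a regulator complex to the membrane, was higher at 18 of 18 sites (0.81).

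Neurofilament genes were all above 0. Nefh, the heavy subunit, was higher at 8 of 8 sites: cortex ranged from 2.86 to 12.5% (median 3.16%) and cerebellum from 5.19 to 21.05% (median 9.40%, median log2 ratio 1.59). Nefl, the light subunit, was higher at 13 of 15 sites (1.29, or 0.99 with both levels at least 2%), and Nefm (0.56) and Ina (0.36) were below 2-fold. Of the microtubule-associated genes, Map1b was higher at 46 of 54 sites (0.58), whereas Map2 (-0.54) and Mapt (-0.43) were lower at 4 of 4 sites each. The wider family of 14 genes had 9 above and 5 below 0 (median 0.26, or 0.03 over sites also in hippocampus). Motor protein genes were above 0 in 10 of 14 cases (median 0.31, or 0.01 in the 10 genes still measured with both levels at least 2%), with Kifc2 as the exception past 2-fold and Kif5c lower at 17 of 21 sites (-0.80).

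**Figure D3:**
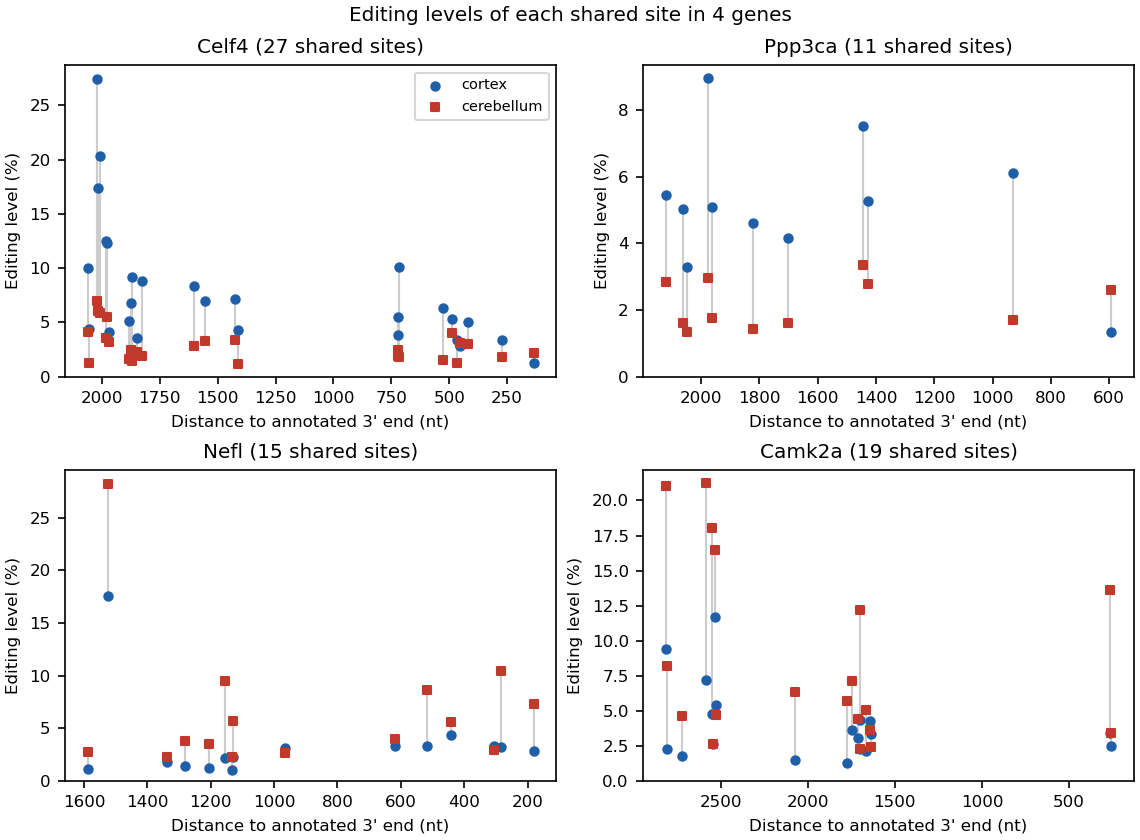
Editing level (%) of each shared site in cortex (blue circles) and cerebellum (red squares) against its distance to the annotated 3′ end along the genome (nt), for Celf4, Ppp3ca, Nefl and Camk2a; grey lines join the 2 levels of a site. Cerebellum was lower at 25 of 27 sites in Celf4 and 10 of 11 in Ppp3ca, and higher at 13 of 15 in Nefl and 16 of 19 in Camk2a.

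Of 20 genes of synaptic vesicles and membrane fusion, 9 lay above and 11 below 0 (median -0.07, or 0.04 in the 12 genes with 5 or more sites), and none was past 2-fold, against 72 of all 642 genes. Snap25, a core fusion protein gene, was lower at 12 of 12 sites, from a median of 3.55% to 2.27% (-0.66). The calcium sensor gene Syt1 was lower at 12 of 14 (-0.43) and Syt2 at 16 of 18 (-0.95), whereas Cplx1, which clamps fusion, was higher at 12 of 14 (0.26). None of the 18 Syt2 members was listed in hippocampus. Of its sites listed in 1 of the 2 regions, 0 were cortical and 25 cerebellar, opposite to the direction of its shared sites. Among 13 genes of synaptic organisers and scaffolds, 6 were above and 7 below 0 (median -0.01, or 0.06 after merging). Dlg2 (1.25, 3 of 3 sites) and Shank2 (1.12, 3 of 3) were 2-fold higher, and Adgrl1 and Clstn1 (-1.06) 2-fold lower. The related scaffold gene Dlg4 was lower at 4 of 4 sites (-0.68), and the latrophilin gene Adgrl3 was higher at 4 of 4 (0.77), opposite to Adgrl1.

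Lists that mark cell types were small. The 9 astrocyte genes with 3 or more members centred near 0 (median 0.10, or -0.07 in the 6 with 5 or more sites; 6 above and 3 below, none past 2-fold), and the glutamate transporter gene Slc1a2 was higher at 24 of 42 sites (0.10). The 4 genes listed as Purkinje cell markers were all above 0 (median 0.65): Rora (0.22), the calcium pump gene Atp2b2 (0.27), Gad2 and Itpr1. That median was 0.24 in the 2 of them with 5 or more sites. Gad2 is also counted under inhibitory transmission above. The 3 genes listed for cerebellar granule cells, Kcnc1, Kcnd2 and Rims3 (-0.70), were all below 0. Of the 3 genes listed for cortical projection neurons, Zbtb18 was lower and Meis2 (0.67) and Camk2a were higher in cerebellum. By the rule, all genes of these lists have sites in both regions, so none of them is edited in 1 region alone. The proportions of cell types were not measured, and their part in these differences was not tested. As a check of the dissections, 9 of 12 cortical markers had a site in the cortical list and 1, Camk2a, in the cerebellar list, while 6 of 14 cerebellar markers had sites in the cerebellar list (190 sites) and 3 in the cortical list (7 sites). Of 10 choroid plexus markers, 3 (Enpp2, Kl and Ttr, 20 sites) were in the cerebellar list and 1 (2 sites) in the cortical list.

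Genes with many members covered both directions. Paqr8, a membrane progestin receptor gene with 56 members, was lower at 36 sites (-0.36), and the long noncoding RNA Oip5os1 at 36 of 48 (-0.77). Of those 48 sites, 25 lay within the RefSeq span of Oip5os1. Hapln4, a perineuronal net protein gene, was higher at 31 of 40 (0.72), and the myosin gene Myo5a at 28 of 42 (0.33). Ythdf2, itself an m6A reader gene, was the gene of the m6A machinery with 3 or more members, and was lower at 5 of 7 sites (-0.41). The sodium and calcium exchanger gene Slc24a2 was higher at 24 of 25 sites (0.76). Some gene names cover shared exons: the clustered protocadherin genes Pcdhgc3 (-0.37) and Pcdha1 (0.75) share their last exons with other members of their clusters, so their sites cannot be assigned to 1 transcript.

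Sites of the same gene did not always differ in the same direction. Of the 399 genes with 5 or more members, 37 had every site on the same side of 0, 23 of them higher and 14 lower in cerebellum, and 101 had sites past 2-fold in both directions. The median range within these genes was 2.32 on the log2 scale. The widest ranges were in Glyr1, from -3.48 to 1.53 over 7 sites, and in Frrs1l, an AMPA receptor assembly gene, from -2.46 to 2.55 over 40 sites. Of those 40 sites, only 12 lay within the RefSeq span of Frrs1l. Neighbouring sites were more alike than distant ones: the median absolute difference of their log2 ratios was 0.66 at gaps of 3 to 10 nt (685 pairs), 0.68 at 11 to 50 nt, 0.72 at 51 to 200 nt, 0.77 at 201 to 1000 nt and 0.91 beyond that (321 pairs). Even pairs within 10 nt had ratios within 2-fold of each other in 69.8% of cases. Nearby sites may be read from the same m6A and are not independent.

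In 320 genes with 6 or more members in the RefSeq span, the sites were split into a group near to and a group far from the 3′ end. The median of the near group was above that of the far group in 176 genes and below it in 144 (median difference 0.07), and the groups differed by 1 or more in 34. The examples that follow were chosen after their values were seen. In Cdk14 the 3 sites near the 3′ end had a median log2 ratio of 0.30 and the 3 far sites one of 2.91. Ppm1l, a protein phosphatase gene, had 1.44 near and -0.44 far. In Tppp, which encodes a tubulin-binding protein of oligodendrocytes, the near sites were level (0.05) and the far ones lower in cerebellum (-1.74), and Arxes2 had 0.37 near and -1.83 far. Which 3′ ends the transcripts used in each region was not measured.

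The hippocampal list was not used to choose the members or the genes. It held 4826 of the 6461 members (74.7%). In the 44 genes higher in cerebellum it held 202 of 280 members, where the median was 2.98% for cortex, 2.90% for hippocampus and 6.29% for cerebellum. In the 28 lower genes it held 188 of 208, with medians of 5.81%, 5.19% and 2.46% in the same order. At sites of the 570 genes between the 2-fold lines the medians were 3.94%, 3.80% and 3.86%. On the log2 scale the mean hippocampal level was nearer to the cortical than to the cerebellar one in 36 of 41 higher genes with such a site, in 27 of 28 lower genes and in 372 of 556 other genes. The 3 regions share their animals, so these values are set side by side and not as independent support.

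**Figure D4:**
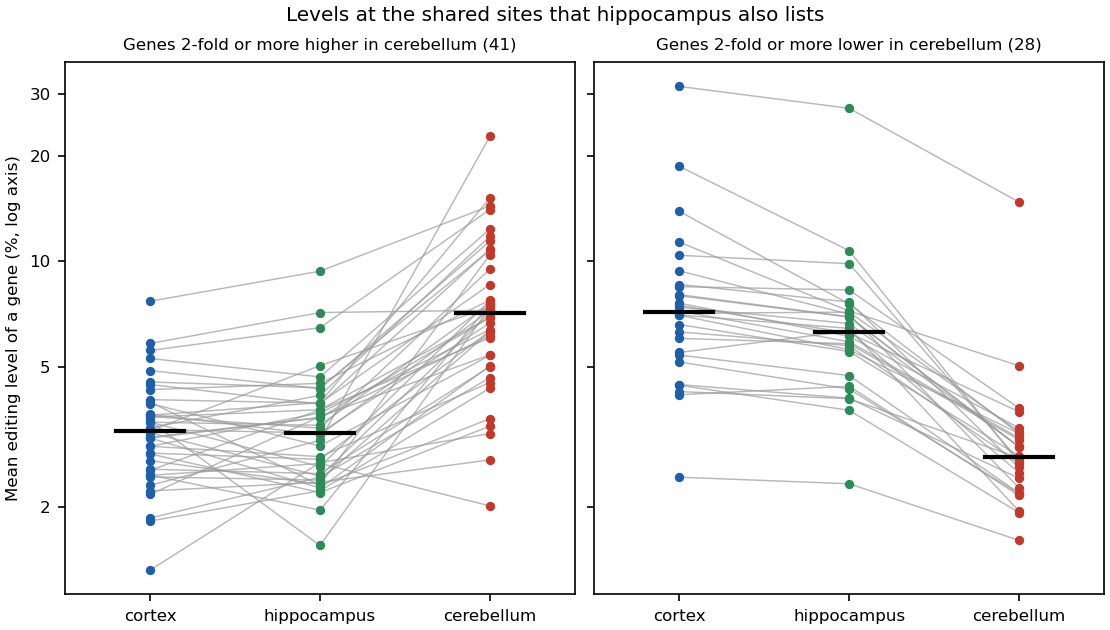
Mean editing level (%, log axis) of each gene past 2-fold, over its shared sites that hippocampus also lists, in cortex, hippocampus and cerebellum. A point is a gene, grey lines join the same gene and black bars are medians over genes; 41 higher genes are at the left and 28 lower ones at the right. The hippocampal mean is nearer to the cortical one in 36 of 41 genes at the left and 27 of 28 at the right.

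The share of members listed in hippocampus changed with the ratio. It was 89.9% of the 89 sites that were over 4-fold lower in cerebellum, 86.3% of those 2- to 4-fold lower, 78.2% and 71.8% of those within 2-fold below and above 0, and 63.4% of those 2- to 4-fold higher. Among the 143 sites at least 4-fold higher it was 69.9% (61.7 to 77.3%, exact binomial interval). At these last sites the hippocampal median was 2.90%, between 1.61% in cortex and 8.69% in cerebellum.

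Sites of the same genes that were listed in 1 of the 2 regions were likewise not used by the rule. All 642 genes together had 4225 sites in the cortical list and not the cerebellar one, and 2246 in the cerebellar list and not the cortical one; 397 genes had more of the former and 184 more of the latter. The 28 lower genes had 555 and 21, and 26 of them had more cortical sites of this kind. Zbtb18 had 49 against 0, Celf4 38 against 0, Adcy1 35 against 0 and Prkce 51 against 0. The 44 higher genes had 171 and 227: 22 had more cerebellar and 20 more cortical ones. Gabbr2 had 1 cortical and 20 cerebellar sites, Insyn1 1 and 15, Nefl 1 and 14, and Itpr1 1 and 13. Stau2, a gene for an RNA transport protein that was higher at 5 of 5 members (1.29), had 22 cortical and 0 cerebellar ones, and Vstm2a 11 and 0. A site can be missing from a list because of its level, because of low coverage or because of the background control, and these cannot be told apart here.

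**Figure D5:**
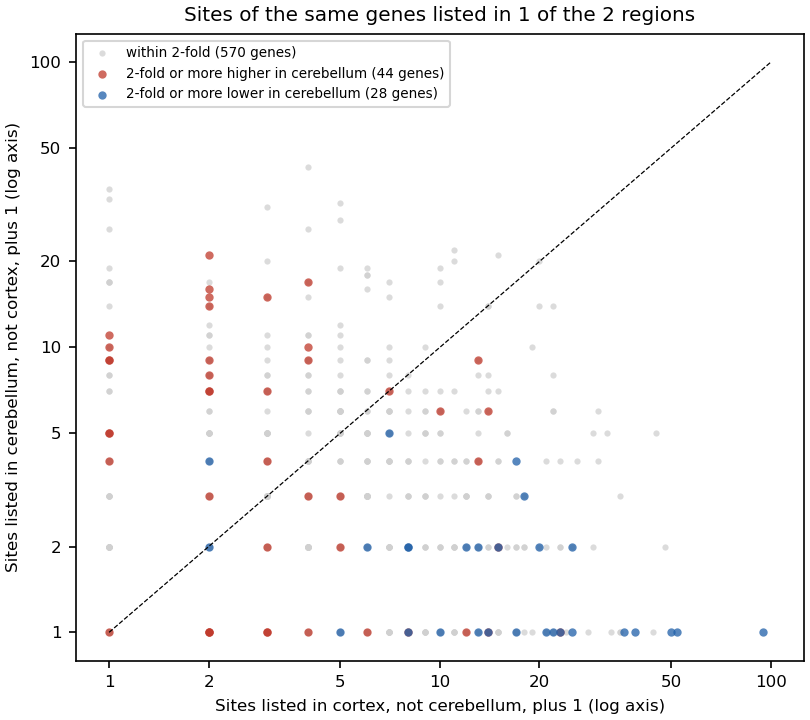
Number of sites per gene listed in cortex and not cerebellum (x axis) against those listed in cerebellum and not cortex (y axis), each plus 1 on a log axis; a point is 1 of the 642 genes with 3 or more shared sites, and the dashed line marks equal numbers. The 28 genes at least 2-fold lower in cerebellum (blue) lie below the line in 26 cases, and the 44 higher genes (red) lie on both sides.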

How the data were processed

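Per the labels' protocols, libraries were made from 900 ng of total RNA with polyA selection and a directional kit. Alignment with STAR 2.7.5 and the build mm10 are named in the submitters' processing notes. Beyond the use of APOBEC1-YTHmut libraries as background, which the series design states, how sites were called and filtered, and how libraries were pooled, is not given in the sources used here. The authors deposited 1 list per region with 6 columns and no header: chromosome, start, end, gene, a value and strand. This deposited value is a fraction, at least 0.01 in every row. It is read here as the share of edited reads in the APOBEC1-YTH libraries of a region combined, which is an assumption, and is printed as percent. Read depth, levels per library and APOBEC1-YTHmut levels are not part of the lists.

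Cortical and cerebellar lists were joined on chromosome, end position (1-based) and strand, and sites under 35% in both were kept. A gene was called higher or lower at a median log2 ratio of 1 or -1. No test was run, and no self-test result is used. Names were matched to RefSeq (GRCm38.p6) for 1537 of 1547 genes. Distances to the 3′ end run along the genome. Exons were not used here.

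The members, the 41 gene families (patterns of gene symbols) and the rules were chosen with earlier results of these data known. Some genes belong to more than 1 family. Patterns of 4 families were corrected for symbol mismatches after values had been seen. Named genes were the 15 highest and 15 lowest medians, in each family the 4 with the most sites and the highest and lowest, the 10 with the most sites, the 6 with the widest range (5 or more sites) and the 6 with the smallest mean absolute ratio (8 or more sites). Named sites were the 8 highest and 8 lowest, 1 a gene, and 3 on either side of the limit. Predicted genes were replaced by the next; a few named by this rule are not reported here. Other genes are named as members of their family or gene group, or after their values were seen. Alternatives were no limit, 25%, minimum levels of 2% and 5%, scaling to equal medians, merging sites within 10 nt, sites also in hippocampus, 5 sites per gene and the ratio of mean levels. Scripts ran under Python 3.11.15 with pandas 2.3.3, numpy 2.4.6 and scipy 1.17.1; figures were drawn with matplotlib 3.10.9.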

Additional observations from a re-analysis of the deposited data

How the results depend on the processing

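The counts of genes past 2-fold depended on how low a level was admitted. With both levels at least 2%, 21 genes were higher in cerebellum in place of 44, and 20 lower in place of 28. With both at least 5%, where 125 genes were left, 3 were higher and 1 lower. With sites that hippocampus also lists, 29 were higher and 28 lower, with 5 or more sites per gene 20 and 21, and after scaling to equal medians 37 and 34. The excess of higher over lower genes (44 against 28) was thus 3 genes or fewer under these settings. Under the other alternatives it remained. The counts were 44 and 28 without the limit of 35% and 46 and 27 with 25%. They were 44 and 29 after merging sites within 10 nt, and 43 and 29 by the ratio of mean levels. The median log2 ratio over sites, 0.0625, became 0.0248 at 2%, -0.0228 at 5% and -0.0159 for sites also in hippocampus. It was 0.0579 without the limit, 0.0652 with 25% and 0.0752 after merging sites within 10 nt. Its direction is thus not settled by these lists. Scaling to equal medians (a shift of -0.08) places it near 0 by construction, at -0.0136, and does not bear on its direction. The same shift applies to every gene and draws the scaled counts of higher and lower genes together. The share within 2-fold, 72.4%, became 78.7% at 2% and 87.5% at 5%, where by construction less room is left for a difference. Of the 72 genes past 2-fold, 38 of the 52 still measured at 2% kept the call, 4 of 8 at 5%, 65 of 72 after scaling, 66 of 69 after merging sites within 10 nt, 48 of 52 with sites also in hippocampus and 52 of 72 by the ratio of mean levels. None changed direction in any of these. The median of 6 families changed sign at 2% and that of 13 at 5%, among them inhibitory transmission and the calcium-dependent kinases at 5%, where 1 gene of each was left. Without the limit of 35%, or with 25%, all 72 and 70 of the 70 still measured kept the call. No paired analysis was possible because each region has 1 combined list with no value per animal.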
